A study of Mus musculus with 24 samples.

Results

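The vesicular glutamate transporters, encoded in the mouse by Slc17a6 (VGLUT2), Slc17a7 (VGLUT1) and Slc17a8 (VGLUT3), were followed in cortical nuclei of the Emx1 lineage. The genes were found by symbol and make up 3 of the 25135 genes listed in the expression tables of both ages. They were chosen because, in earlier results of these data, WT nuclei moved from Slc17a6 to Slc17a7 after birth and Slc17a6 was lower in Kdm6b-cKO nuclei at P30. Those values are therefore given below as a description, without a test.

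Glutamatergic neurons load glutamate into synaptic vesicles with these transporters, which draw on the proton gradient set up by the vacuolar ATPase. In the mature forebrain Slc17a7 is the main form of cortical and hippocampal projection neurons, whereas Slc17a6 is the main form of thalamic, hypothalamic and brainstem neurons and is also used by immature cortical neurons. Slc17a8 is found in smaller populations, among them a subset of Cck interneurons and serotonergic neurons. KDM6B, the product of the deleted gene, is a demethylase that removes the repressive mark H3K27me3.

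Nuclei were sorted from the cortex of Kdm6b-cKO mice (Emx1-Cre; Kdm6b f/f) and of WT littermates (Kdm6b wt/wt) at postnatal day 1 (P1) and day 30 (P30), with 6 libraries in each of the 4 groups. All mice had been backcrossed to C57BL/6 and carried the SUN1-GFP reporter, whose tag on the nuclear membrane was the basis of the sort. The Cre allele of the WT animals is not spelled out in the sources used here. The authors state that the reporter marked Emx1 progeny in both genotypes, and GFP-positive nuclei were sorted from both. Emx1-Cre acts in progenitors of the dorsal forebrain, so the deletion reaches cortical glutamatergic neurons, astrocytes and a share of oligodendrocytes. Levels are FPKM, fragments scaled by transcript length and by the mapped fragments of a library, and they come from nuclear RNA. Libraries carry the numbers 0 to 5 within a group, and nothing states that each came from a separate animal, so p-values measure the spread between these libraries. In such bulk samples fewer cells of a type and less RNA per cell cannot be told apart.

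Depth, read from the steps of 1 read in low values, was 192000 to 3915000 effective reads per library at P1 and 1937000 to 8321000 at P30. At P1, 4 WT libraries (2 to 5) and Kdm6b-cKO library 5 showed signal on 397 to 794 olfactory receptor genes, where the remaining libraries showed it on 2 to 22. The precursor of ribosomal RNA (45S) stayed under 1000 FPKM in WT library 0 and Kdm6b-cKO libraries 0, 1 and 5 of P30 and exceeded it in the remaining 8. Those 8 ranged from 1629 to 25878 FPKM. Both splits are used below as batches defined by these readouts alone. No label names a batch, and whether either split is technical is not known. Whole-gene Kdm6b levels overlapped between the genotypes at both ages, at 24.9 to 51.0 FPKM in WT and 15.0 to 38.4 in Kdm6b-cKO libraries at P1, and 16.9 to 26.4 and 17.5 to 28.1 FPKM at P30. They do not isolate the floxed part of the gene and so give no check of the deletion.

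In the mouse genome build mm9, Slc17a6 and Slc17a7 both lie on the forward strand of chromosome 7, at chr7:58877200-58926495 and chr7:52419291-52431508, and Slc17a8 lies on the reverse strand of chromosome 10 at chr10:89036765-89083998. The longest annotated transcript of each has 12 exons. The 250 bases upstream of each start site are shown because the mark that KDM6B removes can lie at promoters. They are written 5′ to 3′ on the strand of the gene, with every CpG in capitals. The windows are chr7:58876950-58877199, chr7:52419041-52419290 and chr10:89083999-89084248.
Slc17a6: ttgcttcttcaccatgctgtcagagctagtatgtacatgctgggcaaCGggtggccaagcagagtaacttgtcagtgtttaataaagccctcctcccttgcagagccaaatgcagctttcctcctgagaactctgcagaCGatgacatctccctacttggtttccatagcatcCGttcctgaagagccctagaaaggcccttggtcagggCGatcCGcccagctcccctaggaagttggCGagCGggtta
Slc17a7: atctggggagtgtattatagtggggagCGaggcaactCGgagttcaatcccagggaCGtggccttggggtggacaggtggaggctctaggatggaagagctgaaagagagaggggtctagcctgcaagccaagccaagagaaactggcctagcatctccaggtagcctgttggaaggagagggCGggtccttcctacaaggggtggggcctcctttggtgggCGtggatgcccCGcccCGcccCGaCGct
Slc17a8: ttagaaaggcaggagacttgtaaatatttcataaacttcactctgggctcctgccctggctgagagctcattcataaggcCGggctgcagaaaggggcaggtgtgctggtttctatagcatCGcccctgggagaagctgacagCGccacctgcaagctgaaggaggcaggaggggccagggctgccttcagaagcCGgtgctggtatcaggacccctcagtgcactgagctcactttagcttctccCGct
The window of Slc17a7 held 9 CpG at 61.2% G and C, that of Slc17a6 held 7 at 53.2%, and that of Slc17a8 held 5 at 56.4%, against a median of 8 CpG over 22375 upstream windows of the same length. At least as many CpG as in Slc17a6 were present in 55.8% of those windows, so none of the 3 stood apart. The GC box GGGCGG, searched on both strands, occurred 3 times upstream of Slc17a7, once upstream of Slc17a6 and not in the window of Slc17a8, and 39.6% of all windows held it. The E-box letters CANNTG, which read the same on both strands, occurred once, once and 2 times upstream of Slc17a6, Slc17a7 and Slc17a8, and 63.5% of all windows held them. Histone marks were not measured in the data analysed here.

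At P1, WT nuclei held Slc17a6 and Slc17a7 at nearly equal levels. Slc17a6 was at 10.4, 10.2, 10.2, 11.0, 8.42 and 6.86 FPKM in WT libraries 0 to 5, a mean of 9.52 ± 1.56 (SD, n = 6). Slc17a7 was at 13.6, 11.6, 9.29, 8.03, 9.32 and 5.65 FPKM in the same libraries, a mean of 9.60 ± 2.78. The ratio of Slc17a7 to Slc17a6 within a library, which does not depend on how libraries were scaled, ran from 0.732 to 1.31, and neither gene was ahead in all of them. Slc17a8 was far lower, at 0.180 to 1.06 FPKM, and made up 0.815% to 5.15% of the summed level of the 3 genes.

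By P30 Slc17a7 made up nearly all of the vesicular glutamate transporter RNA of WT nuclei. Slc17a7 was at 131, 171, 198, 176, 167 and 190 FPKM, a mean of 172 ± 23.5, which rested on 2475 to 3799 estimated reads per library. Slc17a6 was at 2.26, 1.95, 2.70, 2.58, 2.82 and 3.02 FPKM, a mean of 2.56 ± 0.390, from 39.0 to 78.0 estimated reads. The share of Slc17a6 in the sum of the 3 genes went from between 42.6% and 57.1% at P1 to between 1.12% and 1.70% at P30, with no overlap between the ages. The ratio of Slc17a7 to Slc17a6 was 57.9 to 87.9 in the 6 WT libraries at P30. The authors normalized the ages separately, so changes of level across age are approximate: the mean of Slc17a7 was 18.0-fold higher at P30 and that of Slc17a6 was 3.72-fold higher at P1. On these approximate levels Slc17a7 rose and Slc17a6 fell. How much each contributed to the ratio depends on the scaling between the ages and cannot be set here. Slc17a8 was at 0.0533 to 0.589 FPKM in WT nuclei at P30, which overlapped its P1 range.

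**Figure D1:**
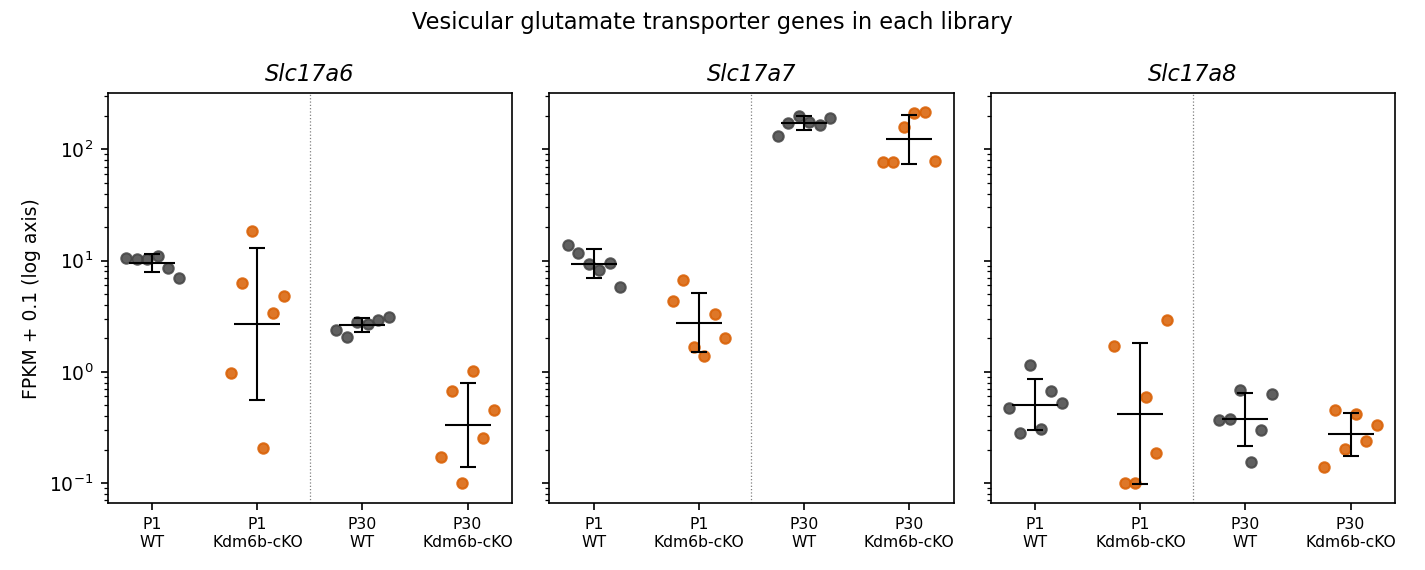
Level of each gene in each library as FPKM + 0.1 on a log axis, for WT (grey) and Kdm6b-cKO (orange) at P1 and P30. Points are libraries 0 to 5 from left to right within a group, bars give the mean and SD of the log values (n = 6), and the 6 Kdm6b-cKO points of Slc17a6 at P30 all lie below the 6 WT points.

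At P30, Slc17a6 was lower in every Kdm6b-cKO library than in any WT library. Slc17a6 was at 0.0706, 0.571, 0, 0.923, 0.155 and 0.353 FPKM in Kdm6b-cKO libraries 0 to 5, a mean of 0.345 ± 0.351 (SD, n = 6), and the mean of WT was 7.40-fold higher. The highest Kdm6b-cKO value, 0.923 in library 3, was below the lowest WT value, 1.95 in library 1. The fitted difference on the log2(FPKM + 0.1) scale was -2.98 with an SE of 0.56, a scale that understates changes of low values. It was -1.43 with a pseudocount of 1 and -3.88 with one of 0.01, and -3.31 to -2.64 when single libraries were left out. Of the 13289 genes tested at P30, 1.05% had all Kdm6b-cKO libraries below all WT libraries, 0.278% were called by limma (over 2-fold with the adjusted p below 0.05), 0.226% were called lower, and 7.37% were lower at an unadjusted p under 0.05. Slc17a6 was itself part of the reason for which these genes were chosen, so its place among them is not evidence. It also passed the filter of a mean of 1 FPKM only through its WT libraries.

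The estimated reads show how thin the remaining Slc17a6 signal was. Kdm6b-cKO libraries 0 to 5 held 1.61, 15.3, 0, 8.01, 1.00 and 6.00 estimated reads of Slc17a6 at P30. At the mean level of WT, their depths would have given 58.2, 68.4, 22.6, 22.2, 16.5 and 43.5 reads. Each Kdm6b-cKO library therefore fell short, the deepest as well as the shallowest. In library 2, where the gene was listed at 0, the depth allows up to 0.339 FPKM at 3 reads. These figures cover counting error only.

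**Figure D2:**
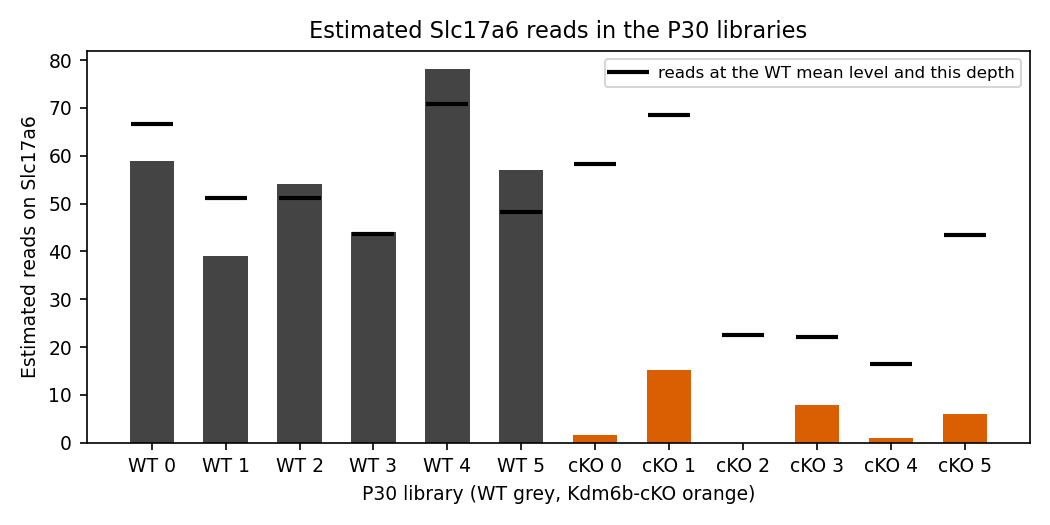
Bars give the estimated reads on Slc17a6 in each P30 library, WT in grey and Kdm6b-cKO (cKO) in orange. Black marks give the reads that the mean WT level would yield at the depth of that library, and every Kdm6b-cKO bar is below its mark, at 0 to 15.3 reads.

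The values of Slc17a7 overlapped between the genotypes at P30. It was at 77.4, 76.5, 158, 213, 216 and 78.6 FPKM in Kdm6b-cKO libraries 0 to 5, a mean of 137 ± 67.9, from 1101 to 1688 estimated reads. The values formed a low set of libraries 0, 1 and 5 and a high set of libraries 2, 3 and 4, with the 2 highest above all WT libraries. The low set was the set with little 45S RNA, and the WT library with little 45S RNA was likewise the lowest of WT. Libraries 0, 1 and 5 were also the deeper ones in Kdm6b-cKO, at 6854000, 8051000 and 5115000 effective reads. Libraries 2, 3 and 4 had 2660000, 2608000 and 1937000. Depth and the 45S split thus cannot be told apart within Kdm6b-cKO. In WT, library 0 had 7844000 effective reads and library 4, at 167 FPKM, had 8321000. Among libraries with over 1000 FPKM of 45S RNA, the 5 WT libraries averaged 181 FPKM and the 3 Kdm6b-cKO libraries 196, a difference of 0.10 in mean log2 values. Among the others the only WT library was at 131 FPKM against a mean of 77.5 in 3 Kdm6b-cKO libraries, a difference of -0.76. The difference over all libraries was -0.48 with an SE of 0.30. It was -0.14 with a term for the 45S batch and -1.07 with array weights, so its size depended on how the libraries were weighed.

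Slc17a6 was low on both sides of that split. Its mean was 0.359 FPKM in Kdm6b-cKO and 2.61 in WT libraries with over 1000 FPKM of 45S RNA, a difference of -3.18 in mean log2 values. In the libraries with less, the means were 0.331 and 2.26 FPKM, a difference of -2.66. Only 1 WT library is in the second batch, so no spread can be given for WT there.

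**Figure D3:**
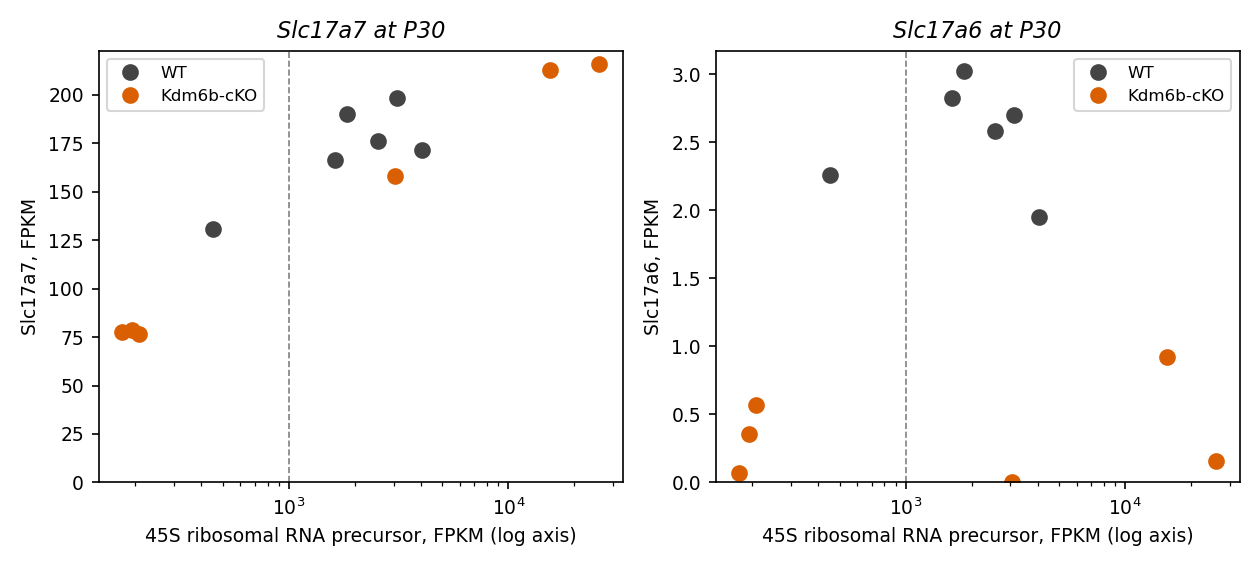
Slc17a7 (left) and Slc17a6 (right) in FPKM against 45S ribosomal RNA precursor in FPKM on a log axis in the 12 P30 libraries, with the dashed line at 1000 FPKM. The 3 Kdm6b-cKO libraries left of the line have Slc17a7 at 76.5 to 78.6 FPKM and the 3 to the right at 158 to 216, whereas Slc17a6 is under 1 FPKM in all 6.

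The ratio of Slc17a7 to Slc17a6 at P30 was higher than in any WT library in the 5 Kdm6b-cKO libraries where it has a value. It was 1097, 134, 231, 1390 and 223 in Kdm6b-cKO libraries 0, 1, 3, 4 and 5, and has no value in library 2. The lowest of these, 134, was above the highest WT ratio of 87.9. The ratio above 1000 in libraries 0 and 4 came from fewer than 2 estimated reads of Slc17a6 each, so its size there is loosely set. Slc17a8 was at 0.0398 to 0.349 FPKM in Kdm6b-cKO and overlapped WT, with a difference of -0.45 in mean log2 values. Across age in Kdm6b-cKO nuclei, the mean of Slc17a7 was 43.8-fold higher at P30 and that of Slc17a6 was 16.2-fold higher at P1, over widely spread P1 values.

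The choice of the genes did not use the Kdm6b-cKO libraries of P1, but it did use the WT libraries of P1, through the switch with age. These form the WT side of the P1 comparisons, so the p-values below for Slc17a6, Slc17a7 and their ratio are not independent of the choice. The background at P1 is that 0 of 16250 genes were called by limma, 0%, with 2352 at an unadjusted p under 0.05, of which 1263, or 7.77% of all genes tested, were lower in Kdm6b-cKO. The median log2 difference of all genes was -0.25 at P1 and -0.05 at P30, and -0.02 at P1 after quantile normalization. Of the genes tested at P1, 0.683% had all Kdm6b-cKO libraries below all WT libraries, and neither Slc17a6 nor Slc17a7 was among them.

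At P1 the mean of Slc17a7 was lower in Kdm6b-cKO than in WT. It was at 4.25, 6.55, 1.56, 1.28, 3.19 and 1.90 FPKM in Kdm6b-cKO libraries 0 to 5, a mean of 3.12 ± 2.02, and the mean of WT was 3.07-fold higher. All but library 1 lay below the lowest WT value of 5.65 FPKM. The log2 difference was -1.76 with an SE of 0.43, and an exact two-sided permutation test over the 924 splits of 6 against 6 libraries gave p = 0.00433, where 0.00216 is the smallest possible. Over all genes tested it did not pass, at an adjusted p of 0.180 by limma. With all libraries 4 such permutation tests were made (3 genes and 1 ratio), and further ones were made in subsets of libraries. The Kdm6b-cKO values rested on 0.997 to 24.0 estimated reads, so single libraries are imprecise.

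The difference kept its direction in the batches and among the deeper libraries. In the 2 WT and 5 Kdm6b-cKO libraries without olfactory receptor signal it was -2.11 (exact permutation p = 0.0952, smallest possible 0.0476), and in the 4 WT libraries and 1 Kdm6b-cKO library with that signal it was -2.01, a value with no test, as that Kdm6b-cKO library held 0.997 estimated reads of Slc17a7. Among the 5 WT and 3 Kdm6b-cKO libraries with over 1000000 effective reads, a subset added after the data were seen, it was -2.25 (exact permutation p = 0.0179, the smallest possible), with an adjusted p of 0.0472 by limma in that subset, where 96 genes were called. That subset left out Kdm6b-cKO libraries 0, 1 and 5, with 45S RNA at 3423, 3239 and 899 FPKM. Libraries 2, 3 and 4, which it kept, were at 28.7, 267 and 221 FPKM, and all WT libraries at 259 to 476. Depth and 45S RNA thus cannot be told apart within Kdm6b-cKO at P1.

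Slc17a6 varied far more between Kdm6b-cKO libraries than between WT libraries at P1. It was at 0.877, 6.13, 18.5, 0.105, 3.29 and 4.70 FPKM, a mean of 5.60 ± 6.71. Library 2 was above every WT library and the other 5 were below every WT library. Libraries 2 and 3, alike in depth at 2814000 and 2858000 effective reads, held 173 and 1.00 estimated reads of Slc17a6. The log2 difference was -1.82 with an SE of 0.81 (limma adjusted p = 0.324; exact permutation p = 0.0628), which passed neither test. It was -2.12 in libraries without olfactory receptor signal (exact permutation p = 0.333). In those with it the value was -0.92, with no test, from 1 Kdm6b-cKO library that held 3.00 estimated reads of Slc17a6.

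The balance of both genes at P1 accordingly went both ways in Kdm6b-cKO. The log2 ratio of Slc17a6 to Slc17a7 was 0.02 ± 0.31 in WT, from -0.39 to 0.44, and -0.03 ± 2.28 in Kdm6b-cKO, from -2.75 in library 3 to 3.49 in library 2. The means differed by -0.06 (exact permutation p = 0.974), while the Kdm6b-cKO range enclosed that of WT on both sides. The sign of this difference turned to positive with a batch term (0.39). Without olfactory receptor signal it was -0.01, and with that signal it was 1.09 from 1 Kdm6b-cKO library.

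Slc17a8 gave no readable difference at P1. Kdm6b-cKO libraries were at 1.59, 0, 0, 0.492, 0.0855 and 2.84 FPKM, and the difference in mean log2 values was -0.27 (exact permutation p = 0.773). The 2 highest values came from libraries 0 and 5, the shallowest, at about 2.33 and 2.32 reads each. With a batch term the difference was 0.60, and it was -0.36 without olfactory receptor signal and 2.30 with it, from 1 Kdm6b-cKO library.

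**Figure D4:**
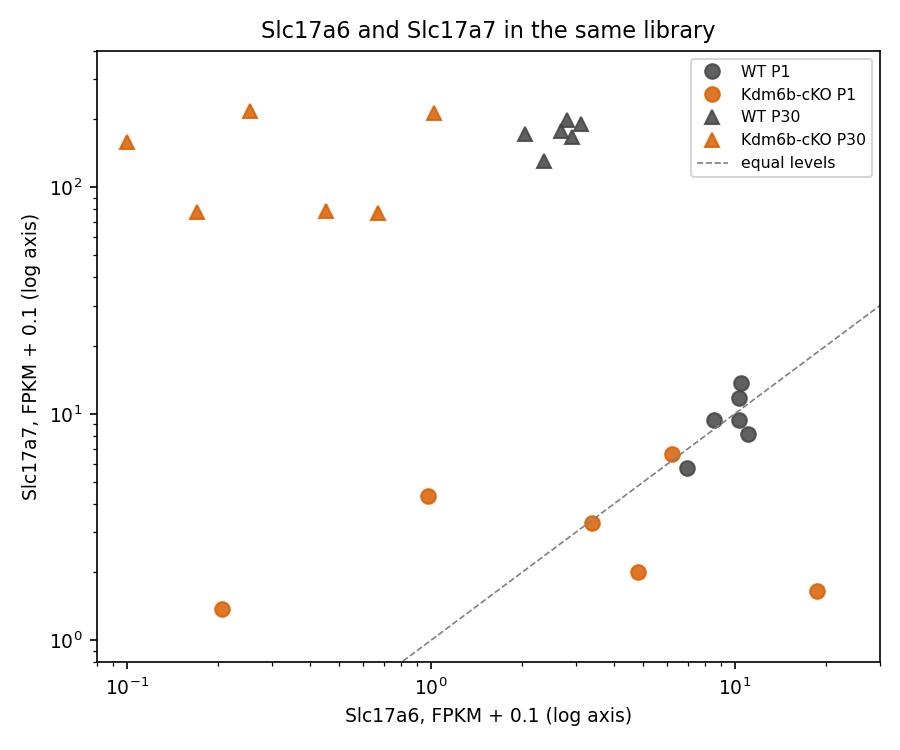
Slc17a7 against Slc17a6 in the same library, both as FPKM + 0.1 on log axes, with circles for P1, triangles for P30, WT in grey and Kdm6b-cKO in orange. WT libraries lie near the dashed line of equal levels at P1 and at 57.9 to 87.9 times as much Slc17a7 at P30, while Kdm6b-cKO libraries scatter along the Slc17a6 axis at both ages.

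Genes whose levels followed each transporter over the 12 libraries of an age were ranked by Pearson's r of log2(FPKM + 0.1), as a description. The values of r within a genotype come from these same libraries and are not independent of the ranking. At P30 those most like Slc17a6 were Nr3c2, the mineralocorticoid receptor (r = 0.94), Abcc10 (0.92), Mapkap1, a component of mTOR complex 2 (0.92), Nxf7 (0.92) and Galnt6 (0.91). Nr3c2 lay between 46.5 and 57.4 FPKM in WT and between 29.95 and 42.6 in Kdm6b-cKO libraries. Its r with Slc17a6 was 0.12 within WT and 0.88 within Kdm6b-cKO, where Slc17a6 rested on 0 to 15.3 estimated reads. For Nxf7 these were -0.01 and 0.85, for Galnt6 -0.06 and 0.67, for Mapkap1 0.45 and 0.72, and for Abcc10 0.67 and 0.70, each over 6 libraries. Slc17a7 ranked 2465 of 13288 by likeness to Slc17a6, with r = 0.39.

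The genes most like Slc17a7 at P30 were Eml2 (r = 0.99), Plcl1, Osbp2, Inppl1 and Fxyd7 (each 0.97), and they shared its split by 45S RNA. Eml2, which encodes a microtubule-associated protein, was at 7.85 to 8.99 FPKM in the 3 Kdm6b-cKO libraries with little 45S RNA and at 20.0 to 31.0 in the other 3. Within WT its r was 0.84, and within Kdm6b-cKO it was 1.00. For the 5 genes r with Slc17a7 was 0.73 to 0.93 within WT and 0.97 to 1.00 within Kdm6b-cKO.

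At P1 Slc17a6 was followed most closely by Adcyap1, the gene of the neuropeptide PACAP (r = 0.93), and then by N4bp2l1, Gid4, Snx19 and Zfp759. Adcyap1 was at 4.40 to 10.1 FPKM in WT and at 0 to 5.59 in Kdm6b-cKO libraries, with r = 0.27 within WT and 0.94 within Kdm6b-cKO. Within WT, r with Slc17a6 was -0.34 for N4bp2l1, -0.29 for Gid4, 0.21 for Snx19 and 0.35 for Zfp759. Within Kdm6b-cKO it was 0.86 to 0.95 for these genes. Slc17a7 was followed by Ablim3 (r = 0.93), Slc25a42, Golga2, Pde4a and Pla2g4e. Their r with Slc17a7 ran from -0.20 (Pde4a) to 0.76 (Pla2g4e) within WT and from 0.83 to 0.93 within Kdm6b-cKO. At that age the likeness of Slc17a7 to Slc17a6 was 0.53, rank 1549 of 16249. Over all of these pairs the libraries share depth and batch with the gene compared.

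Among the other transporters that fill synaptic vesicles, Slc30a3 (ZnT3), which loads zinc into vesicles of glutamatergic terminals, was lower in Kdm6b-cKO at P30 past the adjusted threshold. It was at 97.2, 92.5, 99.8, 101, 90.6 and 95.3 FPKM in WT libraries 0 to 5 and at 56.1, 55.0, 47.1, 61.3, 63.3 and 47.3 FPKM in Kdm6b-cKO libraries, with no overlap. The log2 difference was -0.81 with an SE of 0.13 (limma adjusted p = 0.0204), under the change of 2-fold that a call needs. Its Kdm6b-cKO values overlapped between the 45S sets, with means of 57.3 and 52.8 FPKM above and below 1000 FPKM of 45S RNA. Leaving out WT library 2, 3, 4 or 5 or Kdm6b-cKO library 0 or 1 took its adjusted p to between 0.0504 and 0.0681, with log2 differences of -0.85 to -0.77 over all omissions. At P1 Slc30a3 was at 1.12 to 2.99 FPKM in WT and 0 to 3.34 in Kdm6b-cKO libraries, with a log2 difference of -1.59 (limma adjusted p = 0.370).

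The rest of that list was low or did not pass. Of its 6 genes 3 were tested at P30. Slc32a1, the vesicular GABA transporter, was at 0 to 1.34 FPKM in WT and 0.285 to 2.17 in Kdm6b-cKO libraries and failed the filter. At P1, where all 6 were tested, the highest was Slc18a2, the vesicular monoamine transporter, at 9.91 ± 5.71 FPKM in WT and 4.31 ± 2.68 in Kdm6b-cKO (log2 difference -1.20, limma adjusted p = 0.280). Among the 6 other SLC17 family members the highest was Slc17a5, the lysosomal sialic acid transporter sialin, at 12.3 ± 3.16 FPKM in WT and 13.0 ± 3.74 in Kdm6b-cKO at P30, a log2 difference of 0.07. Slc17a1 and Slc17a4 were listed at 0 in all 12 libraries of P30.

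Genes that make, recycle and take up glutamate were measured throughout, and none was called at either age. Calls were rare over all genes tested, at 0% at P1 and 0.278% at P30, so no call was likely in lists this short. Of the 10 genes of glutamate and glutamine metabolism, all were tested at P30 and 5 lay lower in Kdm6b-cKO, with a median log2 difference of 0.03 against -0.05 over all genes. Slc25a22, a mitochondrial glutamate carrier, had a log2 difference of -0.59 (limma adjusted p = 0.133), and Slc38a3, a glutamine transporter, one of -0.63 (limma adjusted p = 0.136). Of the 4 plasma membrane glutamate transporters tested, 2 lay lower, with a median of -0.10, and the highest, Slc1a2 of astrocytes, was at 39.1 ± 5.34 FPKM in WT and 29.8 ± 4.61 in Kdm6b-cKO. The 17 genes of the vacuolar ATPase had a median of -0.08, with 10 lower.

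At P1 the median log2 differences were 0.00 for glutamate and glutamine metabolism, -0.02 for the vacuolar ATPase and -0.61 for the plasma membrane transporters, against -0.25 over all genes. Slc25a22 was at 31.9 to 90.8 FPKM in WT and 12.1 to 48.0 in Kdm6b-cKO libraries at that age, with a log2 difference of -1.13 (limma adjusted p = 0.206). Among the plasma membrane transporters the highest was Slc1a3, the glial transporter of radial glia and astrocytes, at 91.6 ± 13.4 and 58.7 ± 26.1 FPKM, a log2 difference of -0.77 (limma adjusted p = 0.273).

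**Figure D5:**
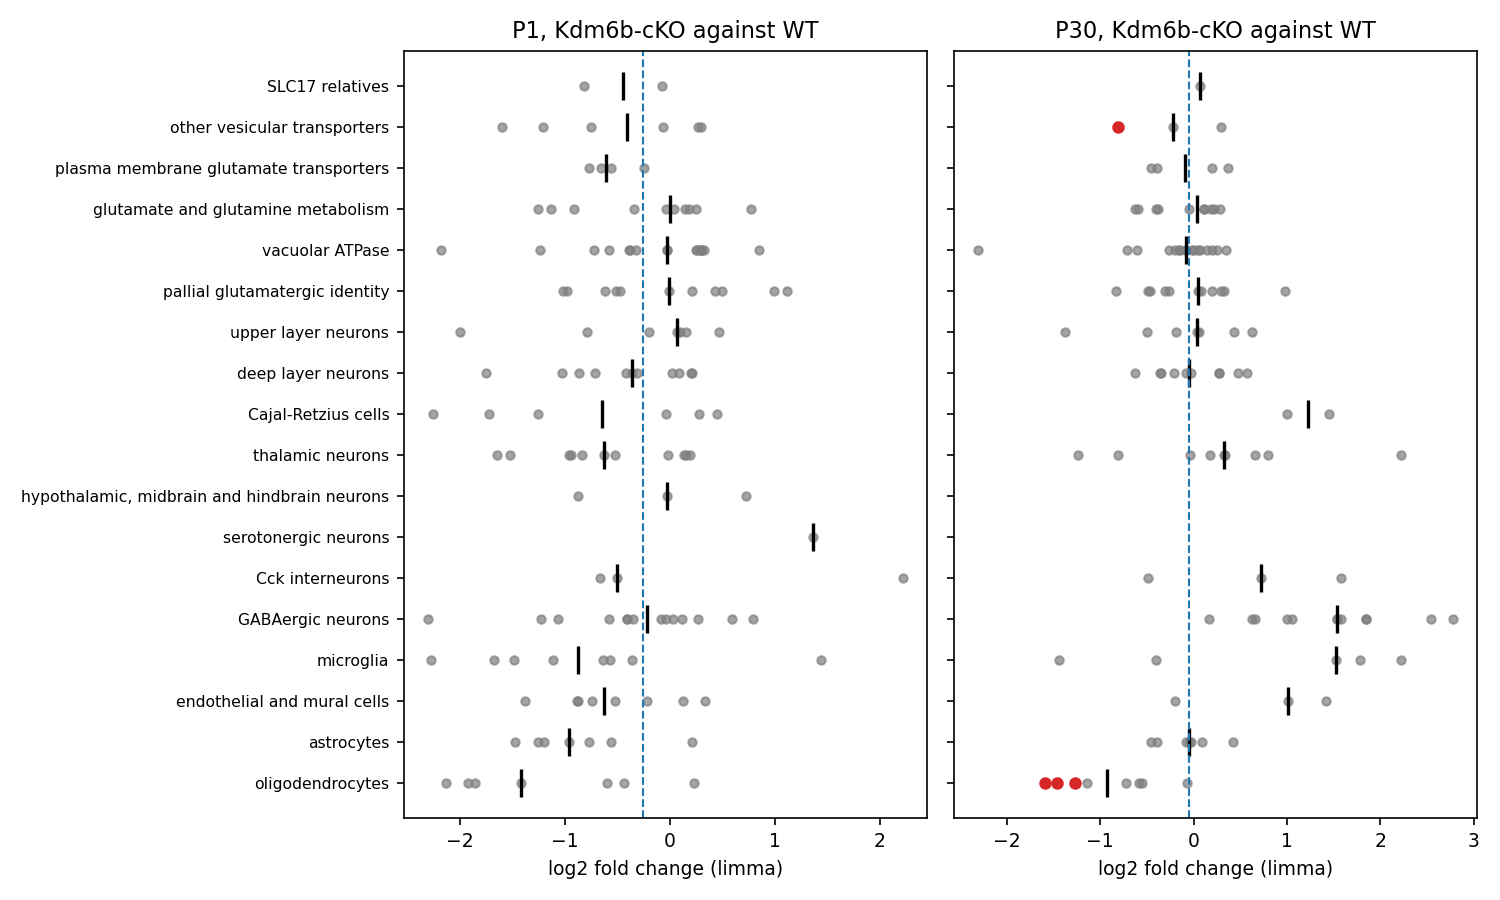
Log2 differences of Kdm6b-cKO against WT by limma for every tested gene of the 18 lists at P1 (left) and P30 (right), with a black bar at the median of each list and a dashed blue line at the median of all genes. Red points pass an adjusted p of 0.05 and are Slc30a3, Mag, Mbp and Sox10 at P30. No gene of a list passes at P1, where none of the 16250 genes tested does.

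The labelled cell type was checked against its markers. All 11 genes of pallial glutamatergic identity were tested at both ages, and none was called. Over all genes tested, 0% were called at P1 and 0.278% at P30. The highest at P1 was Neurod6, a transcription factor of cortical projection neurons, at 340 ± 96.4 FPKM in WT and 475 ± 192 in Kdm6b-cKO. The highest at P30 was Nrgn, a postsynaptic protein of forebrain projection neurons, at 418 ± 56.7 and 233 ± 26.2 FPKM, with a log2 difference of -0.84 (limma adjusted p = 0.0536). The medians of the list were -0.01 at P1 and 0.04 at P30. For deep layer neurons the P30 median was -0.05 and for upper layer neurons it was 0.04. Single upper layer genes went both ways at P30, from Rorb at -1.37 (limma adjusted p = 0.143) to Lhx2 at 0.63 (limma adjusted p = 0.169). At P1 Rorb was at -1.99 (limma adjusted p = 0.180) and Lhx2 at 0.47 (limma adjusted p = 0.443). Some cell types not named above for the Emx1 lineage had more signal in WT at P1. GABAergic genes summed to 785 to 1533 FPKM at P1 and 60.6 to 593 at P30. Endothelial and mural genes summed to 128 to 248 and 3.38 to 19.9, and microglia genes to 65.2 to 145 and 5.97 to 32.4. The thalamic and Cck interneuron sums overlapped between the ages. The part of such cells in the P1 values and in the change with age was not tested.

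Markers of cells that use Slc17a6 or Slc17a8 outside the cortical projection neurons were read beside the P30 result. Of the 13 genes of thalamic neurons 9 were tested and 3 lay lower, with a median log2 difference of 0.33 and summed levels of 74.3 to 118 FPKM in WT and 76.3 to 88.6 in Kdm6b-cKO libraries. The gene of the list with the highest mean over both genotypes was Rora, a nuclear receptor also expressed in cortical layers, at 51.0 ± 13.4 and 23.7 ± 11.8 FPKM (log2 difference -1.24, limma adjusted p = 0.146). Gbx2 was near 0, and Slitrk6 was listed at 0 in all libraries. The 10 genes of hypothalamic, midbrain and hindbrain neurons summed to 0.0655 to 1.61 FPKM in WT and 0.310 to 2.14 in Kdm6b-cKO libraries, and none passed the filter. In the list of Cajal-Retzius cells, Lhx1, Lhx5, Ebf2, Ebf3 and Nhlh2 were at or near 0, and its sum was 3.05 to 10.3 FPKM in WT and 5.82 to 18.2 in Kdm6b-cKO libraries, mostly from Reln and Cacna2d2. The part of Rora-expressing cells in the Slc17a6 result was not tested. At P1 the median log2 differences were -0.62 for the thalamic list, -0.64 for Cajal-Retzius cells and -0.03 for the hypothalamic, midbrain and hindbrain list. The median over all genes was -0.25 at that age.

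Among the markers of other cell types at P30, calls were made in the oligodendrocyte list alone. Over all genes tested, 0.278% were called either way. None of the 12 tested GABAergic genes was lower in Kdm6b-cKO nuclei and none was called, at a median log2 difference of 1.53. Their summed level was 60.6 to 593 FPKM in WT libraries, against 234 to 427 in Kdm6b-cKO. The highest was Sst (somatostatin), with means of 119 ± 118 and 171 ± 72.5 FPKM. All 8 oligodendrocyte genes lay lower, with a median of -0.93 and sums of 251 to 483 FPKM in WT libraries and 139 to 189 in Kdm6b-cKO. Mag, Mbp and Sox10, genes of myelin and of the oligodendrocyte lineage, were called lower, 3 of 8 against 0.226% over all genes. Mag was at 62.8 ± 9.97 FPKM in WT and 21.2 ± 6.45 in Kdm6b-cKO and kept its call without any single library. Mbp lost it without WT 2, 3, 4 or 5 or Kdm6b-cKO 0 or 1 (limma adjusted p = 0.0513 to 0.0681), and Sox10 without WT 2, 3, 4 or 5 or Kdm6b-cKO 0 (limma adjusted p = 0.0513 to 0.0681). In the remaining lists no gene was called. The P30 medians were 1.52 for microglia (5 genes tested), 1.01 for endothelial and mural cells (3), -0.05 for astrocytes (7) and 0.72 for Cck interneurons (3), and no serotonergic gene passed the filter. The part of these cells in the Slc17a6 difference was not tested.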

How the data were processed

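Nuclear RNA of sorted cortical nuclei was sequenced in 4 groups of 6 libraries, WT and Kdm6b-cKO at each age. The authors aligned reads to mm9 with HISAT2 and deposited FPKM values computed with Cuffdiff, separately for each age (versions not given in the sources used here). They also deposited Cuffdiff comparisons, which hold fold changes, p-values and q-values and were not used. The 3 genes and the 18 gene lists were chosen with earlier results of these data known. Genes averaging 1 FPKM or more across the 12 libraries of an age were fitted with limma 3.58.1 in R 4.3.3 on log2(FPKM + 0.1), two-sided with an intensity trend and Benjamini-Hochberg adjustment, after the script was tested on simulated data. Slc17a8 failed that filter at both ages and was compared by permutation at P1. Column numbers matched no sample title and served as names within a group. Pairs of libraries of an age had r of 0.471 to 0.958, and none were identical.

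Effective depth came from the steps of 1 read in single-transcript genes, assuming fragments of 200 bases. Of Slc17a6 values between 1 and 100 reads, 16 of 21 lay within 0.05 of a whole number, after its length had been adjusted to make them so. Estimated reads of Slc17a8 assume its longest transcript. Genes named are all members, the 5 genes most like Slc17a6 and Slc17a7 at each age, and from the lists those called and those with the highest mean. Further genes of the lists (Slc30a3, Slc25a22, Slc38a3, Slc32a1, Slc17a1, Slc17a4, Rorb, Lhx2 and the markers near 0) were named after their values were seen. Some genes covered by the rule are left out. Promoter windows and gene models came from the NCBIM37 genome and GENCODE vM1. The alternatives comprised other pseudocounts (1, 0.01), other filters (none, or an average of 5 FPKM), other scalings (median-of-ratios, quantile), no trend, a batch term, array weights, a replicate block and leaving out each library. Steps outside R used matplotlib 3.10.9, scipy 1.17.1, numpy 2.4.6 and pandas 2.3.3 under Python 3.11.15.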

Additional observations from a re-analysis of the deposited data

How the results depend on the processing

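Low depth at P1 limits all values there. At P1, Slc17a6 kept its direction and stayed above the adjusted p threshold in all settings, with log2 differences of -2.21 to -1.25, and -2.38 to -1.08 when 1 library was left out. Slc17a7 ranged from -2.02 to -1.56 without single libraries and from -2.08 to -1.45 over the settings planned, at adjusted p of 0.0830 to 0.413 and 0.0840 to 0.331. Libraries over 1000000 effective reads, chosen after seeing the data, gave -2.25 for Slc17a7 (adjusted p = 0.0472), 0.21 for the log2 ratio of Slc17a6 to Slc17a7, and 96 called genes. The log2 ratio, -0.06 in the main analysis, was also positive with a pseudocount of 1 (0.20) and a batch term (0.39), and ranged from -0.76 to 0.49 without single libraries (0.03 without WT 3, 0.37 without Kdm6b-cKO 0). Slc17a8 turned positive with a pseudocount of 1 (0.14) and a batch term (0.60), and ranged from -0.83 to 0.14 without single libraries. A mean of at least 5 FPKM, quantile normalization, no trend and array weights were not run for Slc17a8, which is not in the filtered table.

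The count of called genes at P1, 0 in the main analysis, was 1 without the trend and 0 to 51 without single libraries (51 without Kdm6b-cKO 4, 2 without WT 4). At P30, where 37 were called (30 lower), it was 550 with a batch term and 530 with array weights, and 2 to 43 without single libraries. It was 2 without WT 2, 3 or 5, 5 without WT 4, 8 without Kdm6b-cKO 0, 10 without Kdm6b-cKO 1, 21 without Kdm6b-cKO 5 and 22 without WT 1. The cause was not tested. With the column number as a replicate block it was 0 (1569 genes at an unadjusted p under 0.05), and the block took the adjusted p of Slc30a3 to 0.166. The numbers share nothing known, and deviations of same-numbered libraries correlated at -0.18 to 0.23 at P1 and -0.30 to 0.33 at P30.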
